A study of Homo sapiens with 12 samples.

Results

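The genes described here are XBP1 and 9 genes of the endoplasmic reticulum (ER) stress response, 10 of the 63677 genes in the count table: the sensor ERN1, the transcription factor XBP1, the chaperones and cochaperones HSPA5, HSP90B1, CALR, DNAJB9 and SDF2L1, the disulfide isomerase PDIA4, and the degradation factors HERPUD1 and EDEM1. Members were selected by gene symbol from a list that had been chosen with earlier results of these same counts in view, so their values are given as a description, with standard errors and intervals but without p-values. All 10 symbols matched a single protein-coding gene with an Ensembl identifier, and all 10 passed the filter on low counts that left 17092 genes for testing. RNA was sequenced from 12 samples of Huh7, a human hepatocarcinoma cell line, in 4 groups of 3. They were untreated cells kept in medium only, cells treated with graphene oxide (GO) at 400 µg/mL, cells treated at 400 µg/mL with GO that carried the ginsenoside Rg3, a triterpene saponin of ginseng (GO–Rg3), and cells treated at 100 µg/mL with GO that carried both Rg3 and the anthracycline doxorubicin (GO–Rg3–DOX). Treatments lasted 6 h. Free doxorubicin was not analysed here, and GO–Rg3–DOX was given at a lower dose than the other materials, so that the presence of doxorubicin and the dose of the carrier cannot be told apart. The samples come from 1 cell line, and the labels do not say whether the 3 replicates of a group were separate cultures, so the spread between them may be technical. In bulk RNA, a change in a transcript's share of the RNA and a change in the RNA content of a cell cannot be told apart either.

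Proteins that enter the secretory pathway fold in the ER with the help of chaperones, lectins and disulfide isomerases, and those that fail to fold are sent back to the cytosol for degradation. When unfolded proteins accumulate, 3 sensors in the ER membrane respond. IRE1, encoded by ERN1, cuts the XBP1 transcript so that its spliced form encodes an active transcription factor, PERK (EIF2AK3) slows translation and favours ATF4, and ATF6 is cleaved to a transcription factor in the Golgi. Spliced XBP1 and ATF6 act on genes for chaperones and degradation factors, XBP1 among them, through short promoter elements. Hepatocytes secrete much of the plasma protein and depend heavily on this system. A count per gene does not separate spliced from unspliced XBP1, so the values below are total XBP1 transcript and do not measure IRE1 activity.

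The response elements found near the starts of 6 of the 10 members are shown first, since ERSE stood in members that were higher and in one that was lower after GO–Rg3–DOX; no searched element was common to all 10. In RefSeq windows that run from 250 bases before to 50 bases after a gene's start (GRCh38.p14, a different build from the GRCh37 of the counts), 2 motifs were searched on both strands: the ER stress response element ERSE, which is CCAAT and CCACG with any 9 bases between them, and ERSE-II, which is ATTGG and CCACG with any 1 base between them. Both hold the half-site CCACG. ERSE was found in 27 of 35116 windows (0.0769%) and ERSE-II in 19 (0.0541%). Among the 10 members, 4 had ERSE (XBP1, HSPA5, HSP90B1 and CALR) and 2 had ERSE-II (HERPUD1 and SDF2L1). Each stretch is printed from 5′ to 3′ along the gene's strand with 15 flanking bases, and the capitals mark the element; where it lies on the opposite strand the capitals read as its reverse complement.

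XBP1, chr22:28800588-28800636, minus strand: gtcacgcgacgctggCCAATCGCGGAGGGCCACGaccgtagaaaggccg

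HSPA5, chr9:125241376-125241424, minus strand: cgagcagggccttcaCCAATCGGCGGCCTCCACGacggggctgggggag

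CALR, chr19:12938369-12938417, plus strand: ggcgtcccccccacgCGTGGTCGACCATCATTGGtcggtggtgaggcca

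HSP90B1, chr12:103930201-103930354, plus strand: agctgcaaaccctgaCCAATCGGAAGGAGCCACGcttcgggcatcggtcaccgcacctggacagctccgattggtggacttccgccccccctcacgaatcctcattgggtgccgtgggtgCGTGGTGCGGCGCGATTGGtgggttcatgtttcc

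HERPUD1, chr16:56932010-56932050, plus strand: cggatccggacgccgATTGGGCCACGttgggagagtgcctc

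SDF2L1, chr22:21642099-21642139, plus strand: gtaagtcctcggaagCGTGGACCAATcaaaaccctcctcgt

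The XBP1 element lay 52 to 34 bases before the gene's start and that of HSPA5 66 to 48 bases before it, both along the gene's strand. HSP90B1 had 2 elements, 194 to 176 bases before the start and, on the opposite strand, 89 to 71 bases before it. The CALR element lay farther out, at 225 to 207 bases on the opposite strand. The ERSE-II element of HERPUD1 ended 107 bases before the start, and that of SDF2L1 lay 188 to 178 bases before it on the opposite strand. A second RefSeq window of XBP1 held none, and neither motif was found in the windows of DNAJB9, PDIA4, ERN1 or EDEM1, which says only that these letters are not in those windows. The 8-base elements UPRE (TGACGTGG, in 0.729% of windows) and CRE (TGACGTCA, in 1.85%) were found in no member, and the amino acid response element searched as TGATGNAA, in 3.62% of windows, in HERPUD1 alone. These matches are a description of sequence, not of binding.

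Total counts per sample ranged from 27802871 to 38877420, and the members were covered by 436 (SDF2L1 in GO–Rg3 replicate 2) to 70298 counts (HSP90B1 in GO–Rg3–DOX replicate 1). Counting error alone was largest for SDF2L1, ERN1 and the other members with few counts. The members together took 0.587% ± 0.0101 of all counts in untreated cells, 0.550% ± 0.0714 in GO, 0.596% ± 0.0171 in GO–Rg3 and 0.664% ± 0.0470 in GO–Rg3–DOX samples (SD, n = 3). Counts from mitochondrially encoded genes made up 5.81% ± 0.489 of the total in untreated cells, 17.0% ± 6.28 with GO, 7.24% ± 0.301 with GO–Rg3 and 15.4% ± 3.52 after GO–Rg3–DOX. GO replicate 1 stood apart, with 24.1% of its counts mitochondrial against 12.1% and 14.8% in the other GO samples. The members took 0.471% of its counts against 0.609% and 0.571% in the other GO samples, which lay on either side of the untreated samples, so a lower share in GO rests on that library. GO–Rg3–DOX replicate 1 differed from its group in the same direction, with 19.4% of its counts mitochondrial against 13.9% and 12.8%. The members took 0.612% of its counts against 0.678% and 0.703% in the other GO–Rg3–DOX samples. Levels are CPM, counts of a gene relative to the total of its library, scaled by the TMM method of edgeR, which sets libraries to a common level over most genes. Under scaling by library totals alone the median gene's log2 fold change in GO–Rg3–DOX moved from −0.06 to −0.47, and member values under that scaling are to be read against it. Fold changes are given on the log2 scale, positive where the group named first was higher, and a gene is called past the threshold at an adjusted p below 0.01 over all genes tested. The 3 comparisons with untreated cells share the same 3 control samples. Hepatocyte markers were high in every sample, for example albumin (ALB) at 2301 to 6892 CPM, and of 9 markers of other cell types 7 stayed below 3 CPM throughout, with the endothelial PECAM1 at 0 in all 12 samples.

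ERN1 (chr17:62116440-62208179 on GRCh37) encodes IRE1, the kinase and RNase that splices XBP1. Its level was 17.0, 17.9 and 18.0 CPM in untreated cells, against 33.8, 33.6 and 33.6 CPM after GO. All GO samples were well above all other samples. After GO–Rg3 it was 20.1, 22.5 and 21.4 CPM, and after GO–Rg3–DOX 22.9, 27.0 and 28.2 CPM. These 2 groups lay between untreated and GO-treated cells and overlapped with neither of them, nor with each other. Against untreated cells the log2 fold change of ERN1 was 0.93 with GO (SE 0.10, 95% interval 0.72 to 1.15), 0.27 with GO–Rg3 (0.06 to 0.49) and 0.56 with GO–Rg3–DOX (0.35 to 0.78). ERN1 shares 432 and 452 exonic bases with 2 long noncoding RNA genes on the opposite strand, and whether the counting used the strand is not given in the sources used here, so its level is uncertain to that extent.

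XBP1 (chr22:29190543-29196585) stayed near one level in 3 groups and was far below it in the fourth group. It was measured at 377, 374 and 379 CPM in untreated cells, 445, 403 and 385 CPM with GO, and 364, 401 and 372 CPM after GO–Rg3. The GO samples lay just above the untreated ones, and the GO–Rg3 samples overlapped with them. After GO–Rg3–DOX it was 87.4, 83.4 and 95.1 CPM, below every other sample. The log2 fold change in GO–Rg3–DOX was −2.09 (SE 0.09, 95% interval −2.29 to −1.89), a 4.25-fold lower level. With GO it was 0.12 (−0.07 to 0.32) and with GO–Rg3 0.01 (−0.18 to 0.20). ERN1 and XBP1 therefore stood in a different proportion in each treatment: a library held 4.68 ± 0.147 ERN1 counts per 100 XBP1 counts in untreated cells, 8.22 ± 0.577 with GO, 5.63 ± 0.107 with GO–Rg3 and 29.4 ± 3.12 after GO–Rg3–DOX. Such a ratio within a library does not depend on scaling.

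**Figure D1:**
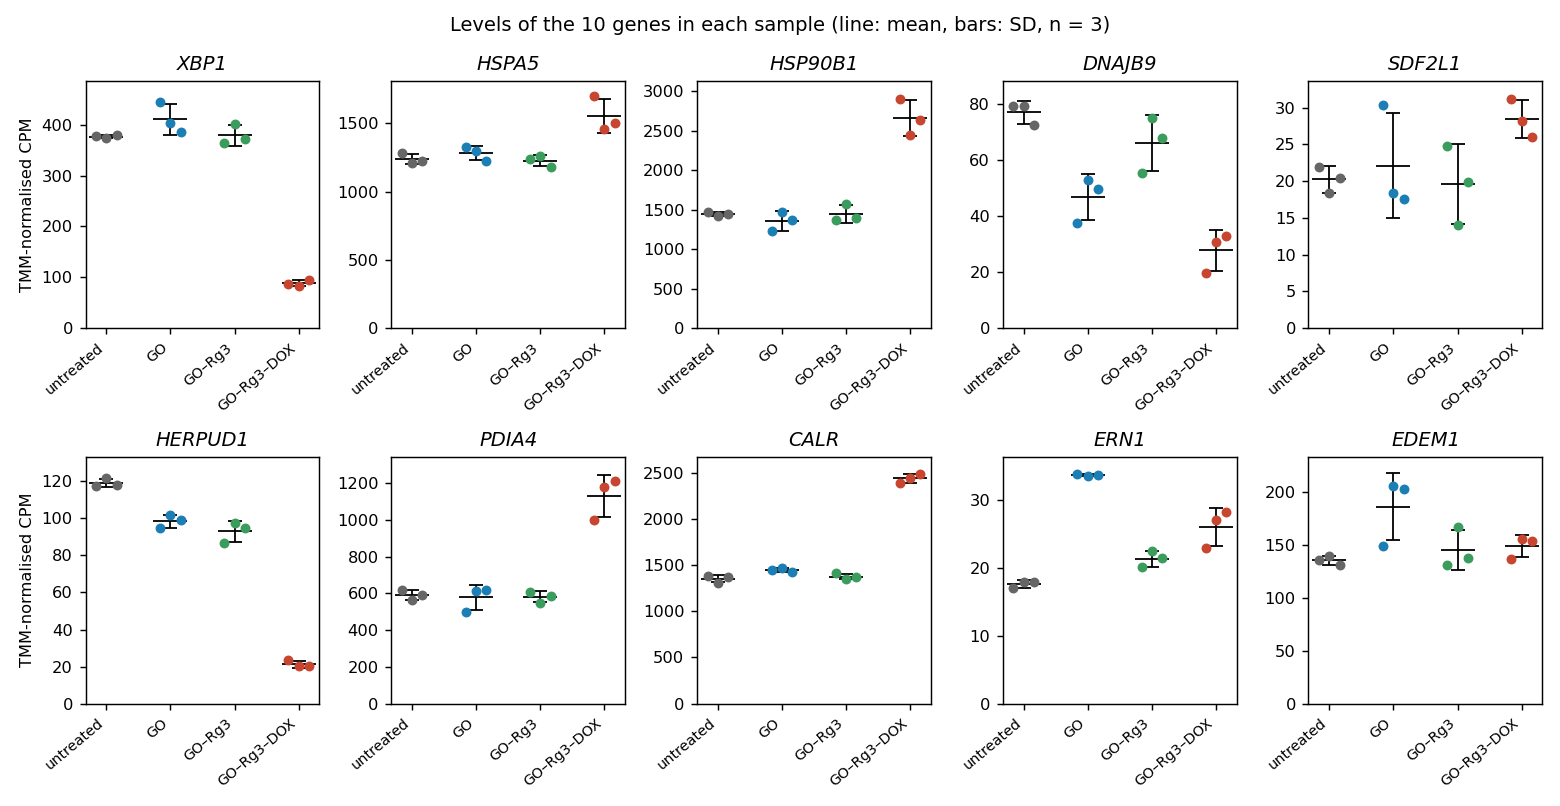
TMM-normalised CPM of the 10 genes (vertical axes, each from 0) in the 12 samples, by group; points are samples, the line is the mean and the bars are the SD of 3. XBP1, HERPUD1 and DNAJB9 were lowest after GO–Rg3–DOX, HSP90B1, PDIA4 and CALR highest there, and ERN1 highest after GO.

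The major chaperones were at a common level in untreated, GO- and GO–Rg3-treated cells and higher after GO–Rg3–DOX. HSPA5 (BiP, chr9:127997132-128003661), the HSP70 chaperone that also binds the stress sensors, was at 1279, 1211 and 1225 CPM in untreated cells. It was at 1329, 1297 and 1223 CPM with GO and at 1237, 1259 and 1180 CPM after GO–Rg3, and these ranges overlapped. After GO–Rg3–DOX it was at 1698, 1460 and 1506 CPM, above all others, and its log2 fold change was 0.33 (SE 0.09, 95% interval 0.13 to 0.52). That value depended on the scaling, and with library totals alone it was −0.10, still above the −0.47 of the median gene.

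HSP90B1 (GRP94, chr12:104323885-104347709), the HSP90 chaperone of the ER, was at 1474, 1418 and 1438 CPM in untreated cells and at 2896, 2444 and 2632 CPM after GO–Rg3–DOX. CALR (chr19:13049392-13055303) encodes calreticulin, a lectin that holds newly glycosylated proteins, and was at 1378, 1306 and 1369 CPM in untreated cells and at 2389, 2445 and 2483 CPM after GO–Rg3–DOX. PDIA4 (ERp72, chr7:148700154-148725754), which forms and rearranges disulfide bonds, was at 619, 566 and 593 CPM and at 999, 1177 and 1211 CPM in the same groups. In these genes every GO–Rg3–DOX sample was above every sample of the other 3 groups. Their log2 fold changes were 0.88 (95% interval 0.66 to 1.10) for HSP90B1, 0.85 (0.67 to 1.03) for CALR and 0.93 (0.70 to 1.16) for PDIA4, and with library totals alone 0.46, 0.44 and 0.52.

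After GO the same chaperones were close to untreated cells. HSP90B1 was at 1225, 1474 and 1369 CPM, PDIA4 at 501, 614 and 621 CPM and CALR at 1450, 1468 and 1428 CPM. The low value of the first 2 genes was that of GO replicate 1, and their log2 fold changes were −0.09 and −0.03 with it and −0.02 and 0.06 without it. For CALR all 3 GO samples were above all untreated samples, by a log2 fold change of 0.10 (−0.08 to 0.28). After GO–Rg3 the levels were 1369, 1572 and 1391 CPM for HSP90B1, 608, 548 and 588 CPM for PDIA4 and 1409, 1349 and 1371 CPM for CALR, and each range overlapped with untreated cells. HSP90B1 shares 805 exonic bases with UQCC6 and CALR shares 270 with a noncoding gene, both on the opposite strand, so reads of these pairs may have been mixed.

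Of the cochaperones of BiP, DNAJB9 was lower relative to BiP after GO–Rg3–DOX, and the direction of SDF2L1 was not settled. DNAJB9 (ERdj4, chr7:108210311-108215294) is a J-protein that recruits BiP to IRE1 and to misfolded proteins. It was at 79.1, 79.1 and 72.3 CPM in untreated cells and 37.4, 52.8 and 49.7 CPM with GO. With GO–Rg3 it was at 55.2, 74.8 and 67.8 CPM, and after GO–Rg3–DOX at 19.4, 30.8 and 32.9 CPM. It was below untreated cells in every GO and every GO–Rg3–DOX sample, and the GO–Rg3 samples overlapped with untreated cells. Its log2 fold change was −0.72 with GO (SE 0.17, 95% interval −1.09 to −0.35), −0.22 with GO–Rg3 (−0.59 to 0.15) and −1.47 with GO–Rg3–DOX (−1.85 to −1.09). Without GO replicate 1, the lowest of its group, the GO value was −0.58 and no longer past the threshold. DNAJB9 has the lowest GC content of the members (37.3% of its transcript), and with an offset for GC content its GO value was −0.40 and its GO–Rg3–DOX value −1.01. SDF2L1 (chr22:21996591-21998588), which binds J-proteins in the BiP complex, was the least precisely measured member, at 21.9, 18.3 and 20.4 CPM in untreated cells, 30.3, 18.4 and 17.6 CPM with GO, 24.8, 14.0 and 19.9 CPM with GO–Rg3 and 31.2, 28.2 and 26.0 CPM after GO–Rg3–DOX. With GO its log2 fold change was 0.12, and −0.17 without GO replicate 1, the highest of its group. The GO–Rg3–DOX samples were above untreated cells, by a log2 fold change of 0.49 (SE 0.21, 95% interval 0.05 to 0.93). It has the highest GC content of the members (65.1%), and with the GC offset the GO–Rg3–DOX value was −0.26.

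The degradation factors differed from each other. HERPUD1 (chr16:56966054-56978776), a membrane protein with a ubiquitin-like domain that joins the ER degradation complex, was at 117.2, 121.7 and 118.1 CPM in untreated cells, 94.7, 101.7 and 98.8 CPM with GO, 86.6, 97.6 and 94.6 CPM with GO–Rg3 and 23.5, 20.2 and 20.1 CPM after GO–Rg3–DOX. All treated samples were below all untreated samples. Its log2 fold change in GO–Rg3–DOX was −2.49 (SE 0.10, 95% interval −2.69 to −2.28), a 5.60-fold lower level and the lowest of the 10 members. With GO it was −0.27 (−0.47 to −0.08) and with GO–Rg3 −0.36 (−0.55 to −0.17). EDEM1 (chr3:5229331-5261643), which takes mannose-trimmed glycoproteins to degradation, was at 135, 139 and 131 CPM in untreated cells, 149, 205 and 203 CPM with GO, 131, 167 and 137 CPM with GO–Rg3 and 137, 156 and 153 CPM after GO–Rg3–DOX. The GO samples were above the untreated ones, by a log2 fold change of 0.46 (SE 0.12, 95% interval 0.19 to 0.72), or 0.59 without GO replicate 1. After GO–Rg3–DOX the value was 0.14 (−0.13 to 0.40), with ranges that overlapped, and −0.27 with library totals alone. EDEM1 shares 631 exonic bases with a noncoding gene on the opposite strand.

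**Figure D2:**
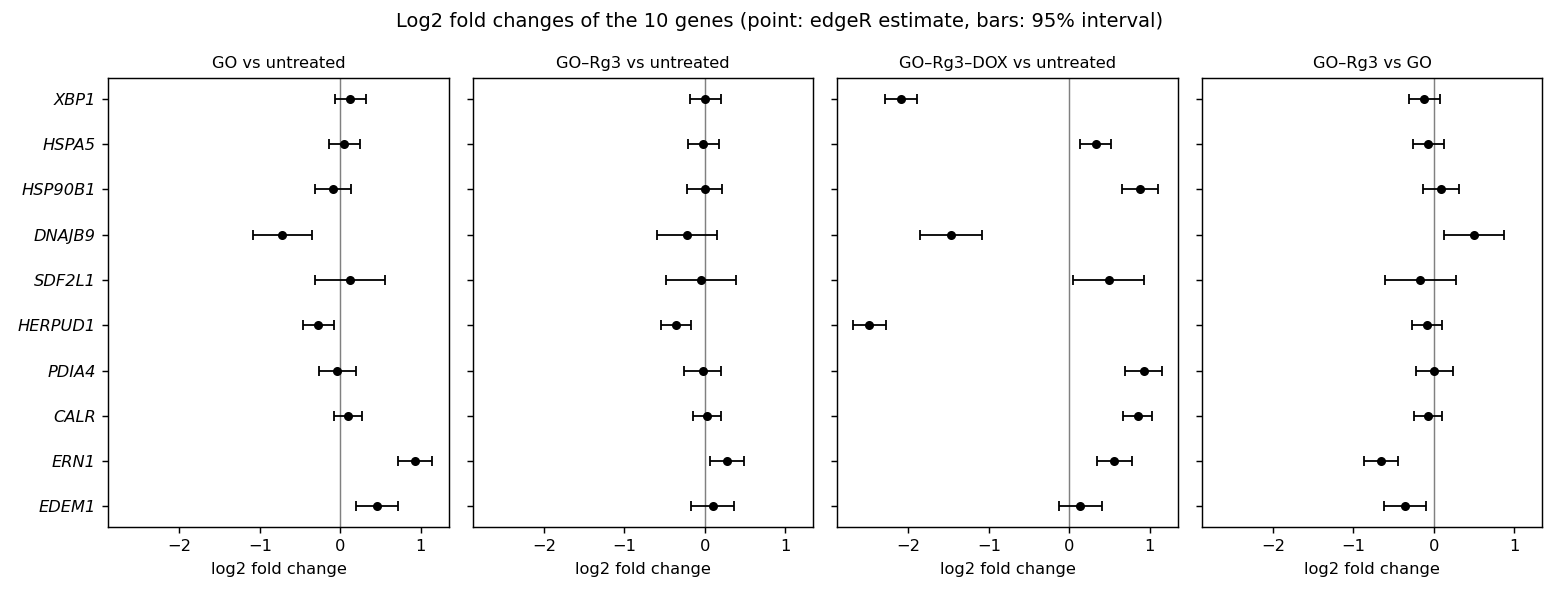
Log2 fold changes of the 10 genes (horizontal axis) in the 4 comparisons; points are edgeR estimates and bars their 95% intervals. In GO–Rg3–DOX the estimates spread from −2.49 (HERPUD1) to 0.93 (PDIA4), while in GO–Rg3 they lay between −0.36 and 0.27.

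Counted against an adjusted p below 0.01 over all genes tested, 2 members were higher with GO (ERN1 and EDEM1; background over all genes 12.1%) and 1 was lower (DNAJB9; background 15.4%). With GO–Rg3, 0 of 10 members passed in either direction by edgeR (background 0.0585% higher and 0.105% lower); at an unadjusted p below 0.05 the counts were 1 higher (ERN1) and 1 lower (HERPUD1), and DESeq2 gave 0 higher and 1 lower (HERPUD1). With GO–Rg3–DOX, 5 were higher (HSPA5, HSP90B1, PDIA4, CALR and ERN1; background 25.5%) and 3 were lower (XBP1, DNAJB9 and HERPUD1; background 30.5%). With an absolute log2 fold change above 1 asked as well, 0 members were higher by edgeR (background 12.6%) and the same 3 were lower (background 18.2%). With library totals alone, 3 members were higher and 3 lower in GO–Rg3–DOX (background under that scaling 12.6% and 42.7%). With GO, 1 was higher and 1 lower under that scaling (background 7.16% and 16.3%). In GO, EDEM1 passed without GO replicate 1 but not when any one of the other 5 libraries was left out, and DNAJB9 passed without GO replicate 2 but not when any one of the other 5 was left out. Since the members were chosen with these contrasts known, nothing is read from their counts against the background. The median log2 fold change of the 10 members was 0.08 with GO, −0.01 with GO–Rg3 and 0.41 with GO–Rg3–DOX, beside 0.01, 0.00 and −0.06 for all genes tested.

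Bare GO and GO–Rg3 were given at the same dose and time, and the members were compared between them over 10 genes and 1 pair of materials. Besides the bound Rg3, the materials differ in their making and form: GO–Rg3 was heated in sulfuric acid, and its flakes were larger, thicker and less negatively charged than those of bare GO. These differences and Rg3 itself cannot be told apart here. ERN1 was lower with GO–Rg3 than with GO by a log2 fold change of −0.66 (SE 0.10, 95% interval −0.87 to −0.45), with no overlap between the samples. It was the 1 member past the threshold in this comparison, for which the background was 7.33% higher and 6.25% lower; 0 were higher by edgeR and by DESeq2, and 1 (DNAJB9) was higher at an unadjusted p below 0.05. With library totals alone ERN1 was not past it. DNAJB9 was higher with GO–Rg3 by 0.50 (0.13 to 0.87), again without overlap, and EDEM1 lower by −0.36 (−0.62 to −0.09), with overlap. Without GO replicate 1 these values were 0.36 and −0.49, EDEM1 was past the threshold as well, and that of ERN1 was again −0.66. The intervals of the other 7 members included 0: XBP1 −0.12 (−0.31 to 0.07), HSPA5 −0.07 (−0.26 to 0.13), HSP90B1 0.09 (−0.13 to 0.31), PDIA4 0.01 (−0.22 to 0.24), CALR −0.07 (−0.25 to 0.10), HERPUD1 −0.08 (−0.27 to 0.11) and SDF2L1 −0.17 (−0.61 to 0.27), the last being 0.12 without GO replicate 1. For the first 6 of these a difference beyond about 0.3 on the log2 scale lies outside or at the edge of the interval, whereas for SDF2L1 larger ones do not. GO–Rg3–DOX was given at another dose and is set beside these values without a comparison.

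Ratios of counts within a library show the members' unequal behaviour without any scaling. Per 100 HSPA5 counts there were 30.4 ± 0.827 XBP1 counts in untreated cells, 33.5, 31.1 and 31.5 in the 3 GO samples, 30.9 ± 1.35 with GO–Rg3 and 5.72 ± 0.582 after GO–Rg3–DOX (SD, n = 3). HERPUD1 went from 9.62 ± 0.444 per 100 HSPA5 counts to 7.68 ± 0.496, 7.59 ± 0.529 and 1.37 ± 0.0282 in the same order, and DNAJB9 from 6.21 ± 0.315 to 3.65 ± 0.722, 5.38 ± 0.805 and 1.81 ± 0.579; the GO samples other than replicate 1 were at 4.07 and 4.06. The reverse was seen for HSP90B1, with 116.6 ± 1.21 per 100 in untreated cells and 171 ± 3.71 after GO–Rg3–DOX, and for CALR, with 109.1 ± 2.28 and 158 ± 14.8. PDIA4 was at 47.8 ± 0.926 in untreated cells and at 58.8, 80.6 and 80.4 in the 3 GO–Rg3–DOX samples. SDF2L1, at 1.63 ± 0.105 and 1.83 ± 0.102, stayed closer to HSPA5. Such ratios do not remove effects of GC content, and the GO–Rg3–DOX fold change of SDF2L1 changed sign with the GC offset, as given above. Promoters with ERSE were found on both sides: XBP1 was 4.25-fold lower after GO–Rg3–DOX while HSPA5, HSP90B1 and CALR were 1.26-, 1.84- and 1.81-fold higher, and of the genes with ERSE-II HERPUD1 was 5.60-fold lower.

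**Figure D3:**
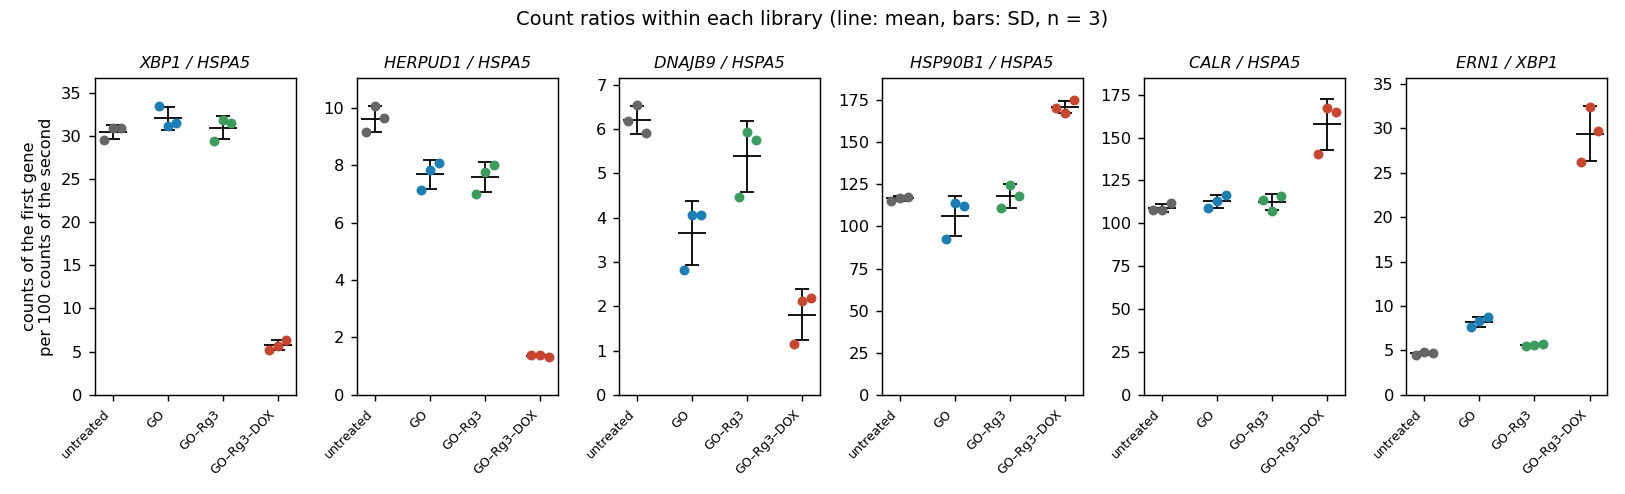
Counts of one gene per 100 counts of another in the same library (vertical axes, each from 0), by group; points are libraries, the line is the mean and the bars are the SD of 3. XBP1, HERPUD1 and DNAJB9 were at 5.72, 1.37 and 1.81 per 100 HSPA5 counts after GO–Rg3–DOX, and ERN1 reached 29.4 per 100 XBP1 counts.

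A scale of CPM per kilobase of transcript allows levels of different genes to be ordered. Lengths were those of a single annotated transcript per gene, which need not be the form expressed here. The SDs and overlaps hold only the spread between samples, not the choice of length. On this scale CALR led in untreated cells at 711 ± 20.6, followed by HSP90B1 at 519 ± 10.1 and HSPA5 at 316 ± 9.24. PDIA4 at 214 ± 9.48 and XBP1 at 210 ± 1.37 followed and could not be separated, since their sample ranges overlapped. HERPUD1 at 41.7 ± 0.826 and DNAJB9 at 31.9 ± 1.64 were lower, SDF2L1 at 24.5 ± 2.19 and EDEM1 at 22.1 ± 0.656 overlapped, and ERN1 was lowest at 2.23 ± 0.0669. After GO–Rg3–DOX XBP1 was at 49.5 ± 3.32, well below PDIA4 at 408 ± 41.3 and HSPA5 at 396 ± 32.2, which overlapped. HERPUD1 at 7.45 ± 0.679 had passed from sixth to ninth place and overlapped with DNAJB9 at 11.5 ± 3.00. In GO and GO–Rg3 the first 3 places were the same as in untreated cells, and XBP1 and PDIA4 again overlapped. From HERPUD1 to the next-to-last gene, all neighbours overlapped in both groups.

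The lists of other secretory pathway genes were also chosen with earlier results of these data known. Their shares and p-values, here and below, are therefore a description. Of the genes on these lists, 114 of 115 were tested. With GO–Rg3–DOX 58 of them rose and 19 fell, 50.9% and 16.7% beside 25.5% and 30.5% of all genes. With library totals alone the split was 25 higher and 30 lower, beside 12.6% and 42.7% of all genes under that scaling, and the median of the 114 genes moved from 0.37 to −0.05, against −0.47 for all genes. Of 24 further ER chaperones and folding enzymes 18 rose and 2 fell, with a median log2 fold change of 0.76 (12 and 3, median 0.34, with library totals alone), and HYOU1, a large chaperone that releases nucleotide from BiP, rose by 1.18 (SE 0.10, adjusted p = 4.55e-08 by edgeR). Of 22 genes for translocation and N-glycosylation 10 rose and 0 fell by edgeR, with a median of 0.41. With library totals alone 5 were higher and 3 lower, with a median of −0.02, and with the GC offset 18 were higher. Of 22 genes of ER to Golgi transport 10 rose and 3 fell (1 and 4 with library totals alone, 15 and 2 with the GC offset), and KDELR1, a receptor that returns ER proteins from the Golgi, rose from 205 to 211 CPM in untreated samples to 504 to 666 CPM (log2 fold change 1.43, SE 0.15, adjusted p = 6.17e-07). The 17 tested degradation factors were divided, with 6 higher and 5 lower and a median of 0.02 (2 and 7, median −0.39, with library totals alone, and 8 and 3 with the GC offset). Markers of other cell types, 4 of 9 tested, had 3 past the threshold in the same contrast (COL1A1, COL3A1 and EPCAM, all higher), and their summed level was 235 to 250 CPM in untreated cells and 286 to 336 CPM after GO–Rg3–DOX, nearly all of it CDH2 and EPCAM; their part in these results was not tested.

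The arms of the response gave unlike counts in GO–Rg3–DOX. Of 12 genes on the list of sensors and transcription factors 6 rose and 2 fell. The split was 1 and 4 with library totals alone and 5 and 4 with the GC offset. Genes for proteases, an adaptor and regulators of cell death are also on that list, so these counts are not of sensors and transcription factors alone. ATF6B rose by 0.97 and ATF6 by 0.37 (adjusted p = 6e-06 and 0.00329), while EIF2AK3, which encodes PERK, fell by 1.35 on the log2 scale (adjusted p = 1.33e-07), from a median of 29.9 CPM to one of 11.9 CPM. Of 11 genes of the PERK and ATF4 arm 2 rose and 7 fell, with a median of −0.71 (1 and 9, median −1.14, with library totals alone). TRIB3, a pseudokinase induced by ATF4, was at 83.8 to 92.3 CPM in untreated cells and at 18.6 to 25.1 CPM after GO–Rg3–DOX (log2 fold change −2.01, SE 0.17, adjusted p = 8.85e-08). ATF4 itself fell by 1.68 on the log2 scale (adjusted p = 1.55e-08), from 350 to 370 CPM to 105 to 121 CPM, CHAC1 fell by 1.55 (adjusted p = 2.31e-05) and VLDLR fell by 1.35 (adjusted p = 8.86e-06). ATF3, a stress transcription factor, rose by 1.77 (SE 0.11, adjusted p = 3.09e-09). The 6 transcripts reported as substrates of IRE1-dependent decay all rose: COL6A1 by 2.05, PDGFRB by 1.52, SCARA3 by 1.04, SPARC by 0.69, HGSNAT by 0.67 and BLOC1S1 by 0.56 (largest adjusted p = 0.00895 for BLOC1S1). BLOC1S1 did not pass when any one of the 6 libraries was left out, and 3 of the 6 genes passed with library totals alone. The XBP1 and ATF4 transcripts were both low in the same 3 samples.

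**Figure D4:**
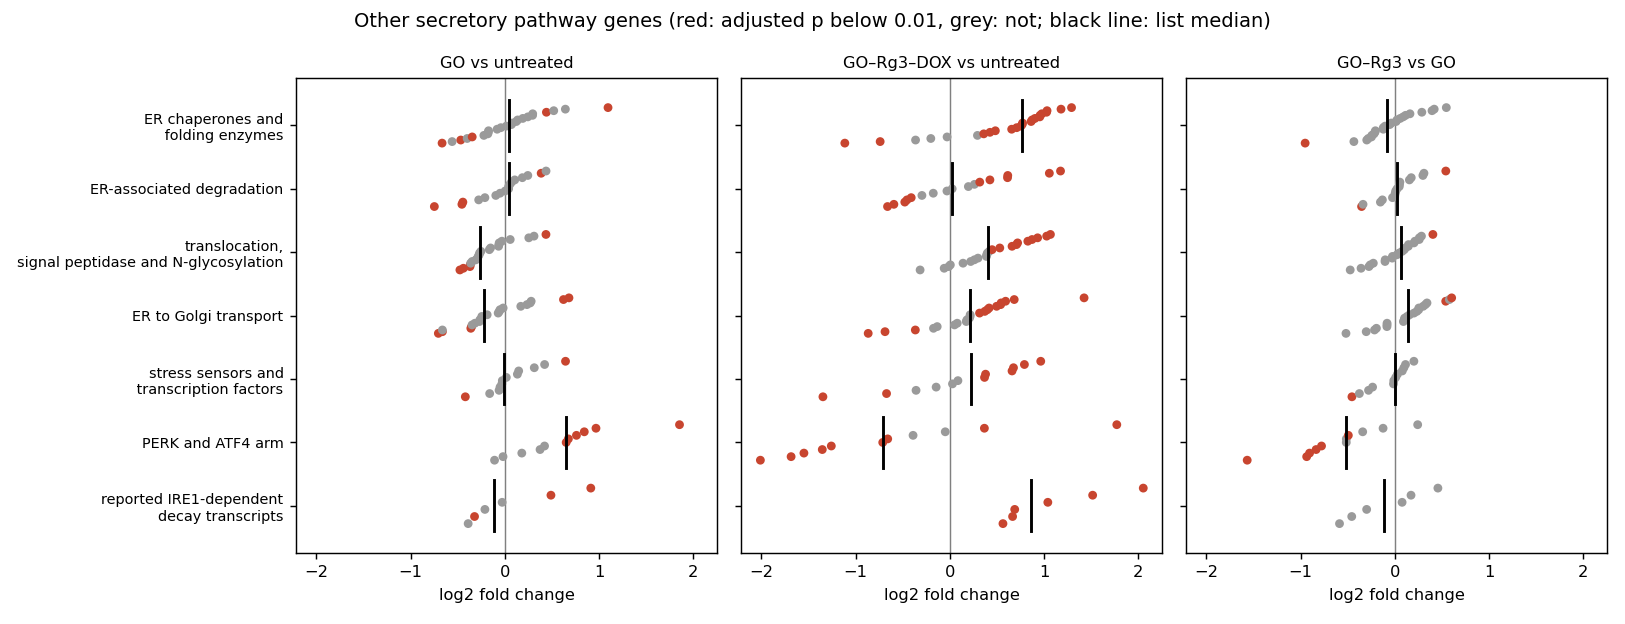
Log2 fold changes of the other secretory pathway genes (horizontal axis) by list, in 3 comparisons; each point is a gene, red where its adjusted p was below 0.01, and the black line is the list's median. The chaperone median was 0.76 and that of the PERK and ATF4 arm −0.71 in GO–Rg3–DOX, against 0.04 and 0.65 with GO.

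With GO fewer of these genes passed. Of the 114 genes 15 rose and 16 fell, 13.2% and 14.0%, close to the 12.1% and 15.4% of all genes. The split was 10 and 20 with library totals alone and 16 and 10 with RLE scaling, the median-ratio method. The PERK and ATF4 arm had 6 of 11 genes higher and 0 lower by edgeR, with a median log2 fold change of 0.65. With library totals alone 5 were higher, with a median of 0.52, and with the GC offset 5, with a median of 0.40. CHAC1, which degrades glutathione, rose from 4.73 to 5.16 CPM to 15.9 to 20.8 CPM (log2 fold change 1.86, SE 0.19, adjusted p = 6.68e-06), and the stress protein SESN2 rose by 0.97 (adjusted p = 4.38e-05). ERO1L, the oxidase that recharges disulfide isomerases, rose from 55.4 to 58.3 CPM to between 110.8 and 128 CPM (log2 fold change 1.10, SE 0.09, adjusted p = 1.12e-06). COL6A1 rose by 0.91 (adjusted p = 0.00133). Genes that fell were ERLEC1 (−0.75, adjusted p = 0.000353), COPB1 (−0.71, adjusted p = 0.000619), ERO1LB (−0.67, adjusted p = 0.00513) and MCFD2 (−0.66, adjusted p = 0.000541). ERO1LB did not pass when any untreated library or GO replicate 1 or 2 was left out. Without GO replicate 1, 20 of the 114 genes were lower; without GO replicate 3 they were 6, and without any one untreated library 5. Of the 24 chaperones and folding enzymes 2 rose and 3 fell, with a median of 0.04 (1 and 3 with library totals alone, 4 and 3 with the GC offset).

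With GO–Rg3, 0 of the 114 genes passed by edgeR in either direction; 2 were higher and 13 lower at an unadjusted p below 0.05, and DESeq2 gave 0 higher and 1 lower (SEC61B). Against bare GO at the same dose, 4 of the 114 genes were higher with GO–Rg3 and 9 lower, 3.51% and 7.89% beside 7.33% and 6.25% of all genes. Of the PERK and ATF4 arm 6 of 11 were lower, led by CHAC1 (−1.57, SE 0.19, adjusted p = 5.62e-05) and ASNS, the asparagine synthetase (−0.94, SE 0.11, adjusted p = 4.85e-05), and VLDLR was lower by −0.91 (adjusted p = 0.00113). ERO1L was lower by −0.95 (SE 0.09, adjusted p = 8.32e-06). The genes that were higher were MCFD2 (0.60), ERLEC1 (0.54), COPB1 (0.54) and SEC62 (0.40), with adjusted p between 0.00227 and 0.00742. The number higher was 1 without GO replicate 1 or 3 or GO–Rg3 replicate 2, and 0 by edgeR without GO–Rg3 replicate 3.

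Outside the listed genes, the genes most like XBP1 over the 12 samples were looked for among 8951 tested genes with a mean of at least 10 CPM, by the root mean square difference of centred log2 CPM. The nearest were ATXN7L3B (0.0838), LHFPL2 (0.0925), FBXO42 (0.0928), GIGYF2 (0.0978) and KAT7 (0.107), with log2 fold changes in GO–Rg3–DOX between −1.98 and −2.14. Among members HERPUD1 was the nearest to XBP1, at 0.193, followed by DNAJB9 at 0.566, and CALR was the nearest to HSPA5, at 0.226. The genes nearest to HSPA5 were DNAJC11 (0.0509), THOC5 (0.0547), INTS4 (0.0573), KDSR (0.0604) and C6orf89 (0.0619). These values rest on 4 groups and mostly on the difference between GO–Rg3–DOX and the rest.

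Finally, the genes with ERSE or ERSE-II that are not members, 23 of which were tested, were followed as a set. In GO–Rg3–DOX 9 were past the threshold upwards and 7 downwards, 39.1% and 30.4% beside 25.5% and 30.5% of all genes, with a median log2 fold change of −0.09. With library totals alone these counts were 7 and 12, beside 12.6% and 42.7% of all genes. The 4 of them that belong to the chaperone and folding list all rose: HYOU1 by 1.18, CRELD2 by 0.90, CANX by 0.87 and PDIA6 by 0.86. Of the 19 others 5 were higher and 7 lower, with a median of −0.25. FICD, which modifies BiP, was among the lower ones, at −0.86 (SE 0.11). With GO 5 of the 23 were higher and 6 lower, 21.7% and 26.1% beside 12.1% and 15.4% of all genes. With GO–Rg3 against GO 2 were higher and 5 lower, 8.7% and 21.7% beside 7.33% and 6.25%, and 2 and 2 with library totals alone. The set is small and was defined after the data had been seen, so nothing is read from these shares.

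**Figure D5:**
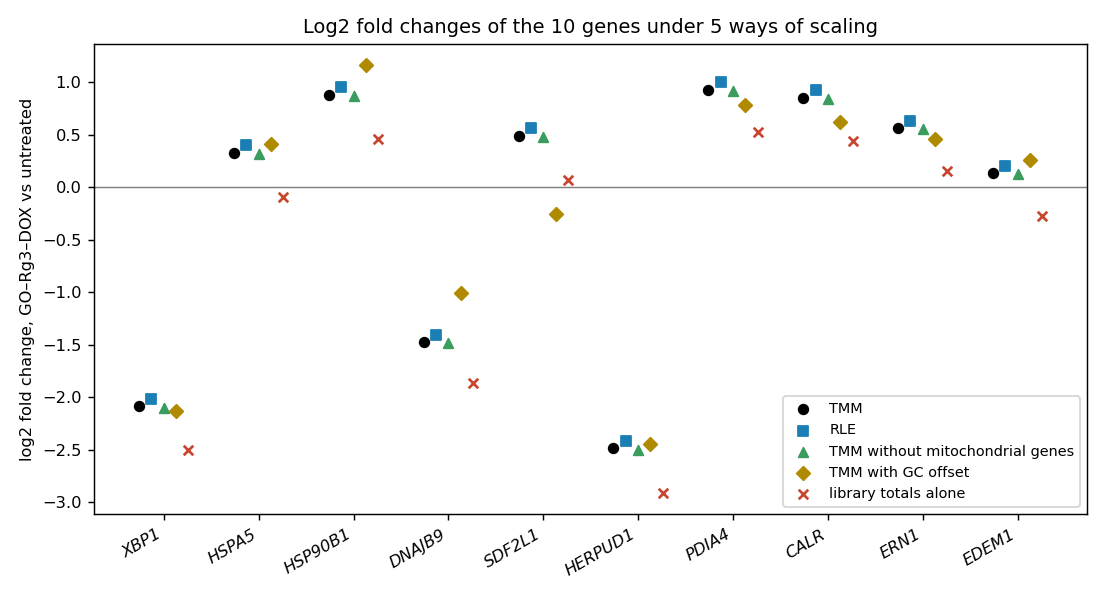
Log2 fold changes of the 10 genes in GO–Rg3–DOX against untreated cells (vertical axis) under 5 ways of scaling, one marker each. XBP1, HERPUD1 and DNAJB9 were below −1 under all 5, HSPA5 went from 0.33 to −0.10 and EDEM1 from 0.14 to −0.27 with library totals alone, and SDF2L1 from 0.49 to −0.26 with the GC offset.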

How the data were processed

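Libraries were made by the authors from polyadenylated RNA with a stranded kit. The deposited values are raw counts per Ensembl gene from featureCounts on GRCh37, per the labels, without normalization; the annotation release and the strand setting are not given in the sources used here. Counts were summed per sample to 27802871 to 38877420. A gene was kept when 3 or more samples had 10 or more counts (17092 genes). edgeR 4.0.16 in R 4.3.3 was used for TMM scaling and the quasi-likelihood test, with all 12 samples in one model of group without a block and Benjamini-Hochberg adjustment over all genes in each comparison; the authors used DESeq2. A gene was past the threshold at an adjusted p below 0.01. Intervals are 95% intervals of the estimated log2 fold change, from the spread between samples that edgeR fitted over all 12 samples with information shared across genes. Gene positions and transcript lengths came from GENCODE 44 lifted to GRCh37, and promoter windows from RefSeq on GRCh38.p14. Tables were made with pandas 2.3.3 in Python 3.11.15.

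The members and all lists were chosen with earlier results of these data known. All members were named in every comparison. Other pathway genes were named when, in a comparison, they were among the 4 largest in a direction among those past the threshold without overlap and with a mean of at least 1 CPM; the IRE1 decay list could be named whole, and HYOU1, ATF6, ATF6B, EIF2AK3, FICD and the genes with ERSE were named after their values were seen. Alternatives were RLE scaling, library totals alone, TMM without mitochondrially encoded genes, other filters, DESeq2 1.42.0, a replicate block, only the 6 samples compared, a GC content offset (loess, span 0.5, 97.3% of genes with a value), other thresholds, and each sample left out. On simulated data for GO against untreated cells, over 17092 genes, the fit recovered 198 of 200 changed genes and called 2 unchanged ones. The changes were large, with a median log2 fold change of 2.00 for the raised genes, and genes with few counts were not changed. No shift in the mitochondrial share was simulated. The simulation therefore does not show how smaller changes are recovered in these libraries.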

Additional observations from a re-analysis of the deposited data

How the results depend on the processing

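Of the recomputed counts of genes past the threshold 230 stayed within 1.5 times of the reported ones and 58 did not. A count of 0 that stayed at 0 was scored as unchanged. With GO–Rg3 the reported counts of members and other pathway genes were 0 in both directions. Of the members' log2 fold changes 571 moved by less than the spread between replicates and 68 by more, most of them with library totals alone or with the GC content offset. A change of sign was scored only for members past the threshold, and 1 was found: HSPA5 in GO–Rg3–DOX, at −0.10 with library totals alone. Members not past it also changed sign, among them SDF2L1 and EDEM1 as given above. Of the other named genes' results 731 kept their call, 70 lost it and 9 gained one. The causes were not tested.

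With GO, the other pathway genes that were higher numbered 23 at an adjusted p below 0.05 and 4 below 1e-04. The lower ones numbered 10 with RLE scaling, 28 at 0.05 and 0 at 1e-04 by edgeR (32 at an unadjusted p below 0.05 and 20 by DESeq2), and 5 to 20 with a sample left out. Members that were higher with GO numbered 1 with library totals alone, 1 in the fit of only the 6 samples compared, 1 at 1e-04 and 1 to 2 with a sample left out. Members that were lower numbered 2 at 0.05, 0 at 1e-04 by edgeR and 0 to 1 with a sample left out.

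With GO–Rg3, lower pathway genes numbered 3 without a filter on low counts, 1 with DESeq2, 1 at 0.05, and 1 lower member was found with DESeq2. With GO–Rg3–DOX, pathway genes numbered 25 higher and 30 lower with library totals alone and 35 higher and 9 lower at 1e-04, and higher members numbered 3 under each of these settings. With GO–Rg3 against GO, higher pathway genes numbered 11 with DESeq2, 0 by edgeR in the 6 samples compared, 15 at 0.05, 0 at 1e-04 and 0 to 4 with a sample left out. Lower ones numbered 4 in the 6 samples compared, 16 at 0.05 and 3 at 1e-04. Of the members, 1 was higher without a filter and 1 at 0.05; 0 were lower by edgeR with library totals alone and 0 at 1e-04, 2 were lower with the GC content offset, 2 at 0.05 and 1 to 2 with a sample left out.

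Replicate numbers are shared by the groups, and the labels do not say what they stand for. Deviations from the group means correlated at 0.0914 on average between samples of the same number (18 pairs, range −0.0239 to 0.253) and at −0.0451 between others (36 pairs). These values do not settle whether samples of the same number share a culture or a batch. With the replicate block, lower pathway genes with GO–Rg3 numbered 1 (1 also with the GC content offset and block), those with GO–Rg3 against GO 7 higher and 15 lower, and 1 member (DNAJB9) was higher in that comparison; with the GC content offset and block 2 members were lower there. SDF2L1 and DNAJB9, at the ends of the members' GC range, moved most with the offset. With 3 samples a group, SDF2L1 had the widest intervals of the members.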
